A study of Mus musculus with 6 samples.

Results

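The collagens, laminins and other extracellular matrix genes of the Affymetrix mouse 430A array were followed in rhombomere 4, the hindbrain segment whose identity Hoxb1 specifies. Members were chosen by symbol from the platform annotation: collagen alpha chains, laminin chains and a fixed set of named glycoproteins, microfibril proteins and proteoglycans. Of that set Fbn1 is not analysed here. This gave 97 probe sets of 61 genes, among 22626 probe sets tested and 12393 named genes. Total RNA came from pools of segments dissected from several mouse embryos each at E10.5, mid-gestation. Wild-type embryos gave 3 pools and Hoxb1 mutant embryos gave 3, each stated by the submitters to be an independent biological replicate and each hybridised to 1 array. The sources used here do not give the mutant allele, its zygosity, the strain or the number of embryos per pool. Both groups shared stage and dissection, and the labels describe the tissue as mainly rhombomere 4 with the branchial arches around it.

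The extracellular matrix is a secreted network that cells attach to and migrate through. Its basement membranes are sheets of laminin and collagen IV joined by nidogens, and one of them surrounds the neural tube. The connective tissue outside holds fibrillar collagens, fibronectin, microfibrils and proteoglycans, made largely by mesenchyme, including that of the neural crest that fills the branchial arches. Collagen II and collagen IX are best known from cartilage but are also made by embryonic epithelia, including neuroepithelium, and by the notochord.

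Each array gave 1 linear intensity per probe set, already scaled by the submitters. Bacterial control probe sets, which have no mouse target, had a 95th percentile of 61.5, taken here as background. Each difference is the mutant mean less the wild-type mean of log2(intensity + 16), with the standard error (SE) of the limma fit, and this scale understates differences of dim probe sets. A value printed with an SE alone is such a log2 difference, and a probe set is called lower or higher by the sign of its difference, whether or not it passed a test. With 3 arrays against 3, a 2-sided exact permutation test cannot go below 0.1, so single probe sets are given with limma's adjusted p, and an unadjusted limma p under 0.05 is used only to count. Intensities of different probe sets do not order their transcripts by abundance. Hoxb1 itself gave 341, 378 and 588 on the wild-type arrays and 60.8, 35.3 and 50.03 on the mutant arrays, which does not overlap between the groups, and its limma adjusted p was 0.0695. The 18S ribosomal RNA control probe sets set wild-type arrays 2 and 3 apart: their mean log2 signal was 12.1 and 11.3, and that of the other 4 arrays ran from 6.36 to 7.03. Results are therefore also given with that signal as a covariate, and without those 2 arrays where that matters. Because the signal is high on those 2 arrays alone, the covariate fit also rests mostly on wild-type array 1. The 2 settings are therefore not independent of each other.

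No member passed an adjusted p of 0.05, and 0% of all probe sets did. The lowest adjusted p of a member was 0.235 in limma. The members nevertheless lay lower in mutants more often than probe sets at large. Their median log2 difference was -0.11, against -0.02 over all probe sets tested, and 68 of the 97 (70.1%) had a lower mean in mutants, against 54.2% of all. Some genes count more than once here. With 1 probe set per gene, 40 of 61 genes were lower, with a median of -0.10, where 54.5% of all genes were lower. The quartiles of the members were -0.24 and 0.05, and those of all probe sets -0.17 and 0.11. At an unadjusted limma p under 0.05 stood 9 members (9.28%), against 5.76% of all probe sets. Of these 9, 8 were lower in mutants (8.25%, against 3.88% of all) and 1 was higher, against 1.88% of all. All 3 mutant arrays lay below all 3 wild-type arrays in 12 member probe sets (12.4%), against 7.08% of all, and above them in 1, against 4.88%. In bulk tissue, fewer cells of a type and less RNA per cell cannot be told apart.

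These counts moved with the scaling and with the 18S signal. With arrays centred on their medians, 60 members were lower and 37 higher, with a median of -0.06 against 0.03 over all probe sets. The 9 members at an unadjusted p under 0.05 then split into 7 lower and 2 higher, and the lower share among all such probe sets went from 67.4% to 45.9%. Quantile normalization gave the same split of 7 and 2, and 51.7%. With the 18S covariate, 5 members (5.15%) reached that p, close to the 4.01% of all probe sets. Of these 3 were lower and 2 higher, 4 were among the 9, and 67 of 97 members were lower. Only Lama2 among these 5 had a mean above background. The others were dim probe sets of Mfap5, Col4a6, Col9a3 and Col19a1. Without wild-type arrays 2 and 3, an alternative chosen after seeing the data that leaves 1 wild-type array, 4 members (4.12%) reached it, 2 lower and 2 higher, 3 of them among the 9, where 4.25% of all probe sets did. The members counted without those arrays all had means at or below background. With array weights the number of members at that p was 14 (14.4%), against 9.25% of all. With 1 probe set per gene it was 4 of 61 genes, all lower, where 5.46% of all genes reached that p. The sign of the difference turned in 15 members with the 18S covariate, 8 of them from lower to higher, and in 15 without wild-type arrays 2 and 3, again 8 from lower to higher.

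**Figure D1:**
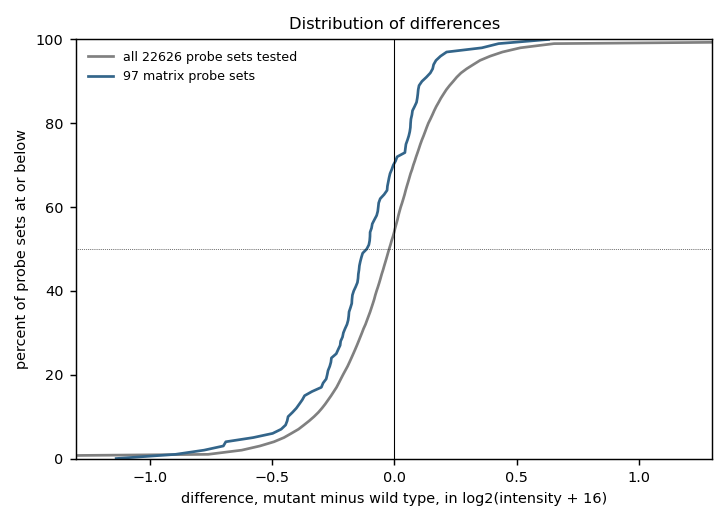
Percent of probe sets at or below each difference (x axis, mutant minus wild type in log2 of intensity + 16) for the 97 matrix probe sets (blue) and all 22626 tested (grey). The blue curve lies to the left of the grey one through the middle of its range, with medians of -0.11 and -0.02.

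Seen array by array, the mean deviation of the 97 members from their 6-array means was 0.06, 0.09 and 0.05 on wild-type arrays 1 to 3 and -0.01, -0.07 and -0.11 on mutant arrays 1 to 3. The mutant arrays thus all lay below the wild-type arrays. Over all 22626 probe sets the same quantity was 0.02, 0.03 and -0.0015 for wild type, and 0.05, -0.05 and -0.05 for mutants, with mutant array 1 the highest of the 6. Mutant array 3 was the lowest for the members, and for the fibrillar, collagen VI, fibril-associated, laminin, nidogen, adhesive and proteoglycan groups. It was also the lowest over all probe sets, at -0.054 against -0.049 on mutant array 2, and its median intensity of 187 was the lowest of the 6. Nidogens and proteoglycans were highest on mutant array 1, at 0.25 and 0.13.

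**Figure D2:**
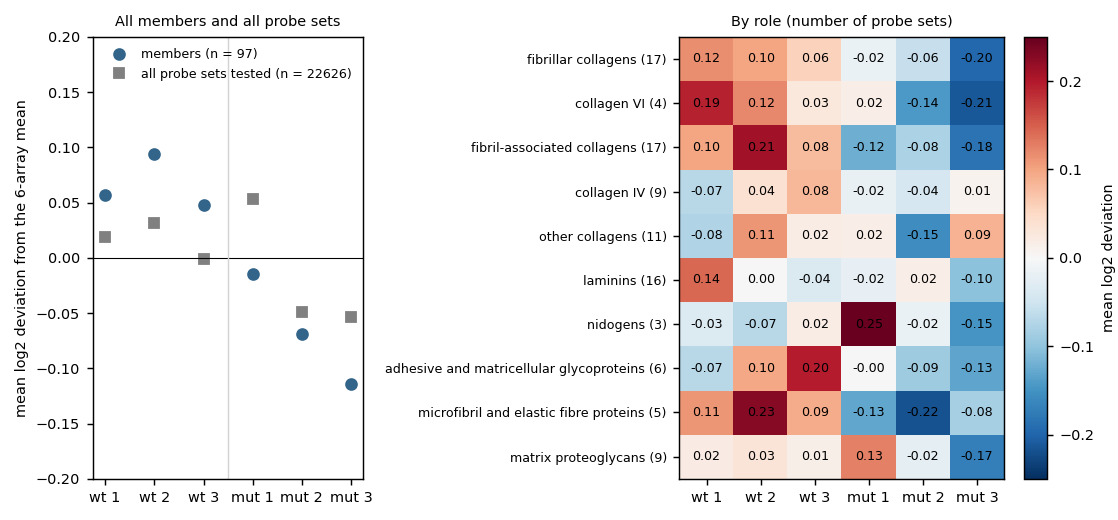
Left, mean log2 deviation from the 6-array mean on each array for the 97 members (circles) and all probe sets tested (squares); right, the same by role, with the number of probe sets in parentheses. Every mutant array lies below every wild-type array for the members, from -0.01 to -0.11 against 0.05 to 0.09, while the squares overlap between the groups.

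Fibrillar collagens, the chains of the rope-like fibrils of connective tissue and cartilage, were lower in mutants in 15 of 17 probe sets of 9 genes, with a median log2 difference of -0.15. With median centring 13 of 17 were lower, and with the 18S covariate 16 of 17. Col2a1, the collagen II chain of embryonic cartilage and notochord, gave 2108, 2773 and 2598 on the wild-type arrays and 1737, 1949 and 1814 on the mutant arrays. All mutant arrays lay below all wild-type arrays, and mutants averaged 73.5% of wild type (log2 difference -0.43, SE 0.14, limma adjusted p = 0.833). With the 18S covariate the log2 difference was -0.22 (SE 0.17), and without wild-type arrays 2 and 3 it was -0.20 (SE 0.18).

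Collagen XI limits the diameter of collagen II fibrils. The Col11a2 probe set gave 102, 130.2 and 122 on the wild-type arrays and 103, 102 and 50.2 on the mutant arrays, where mutant array 3 lay below background and the other 2 mutant arrays lay at the lower edge of wild type (log2 difference -0.46, SE 0.25). Its chain Col11a1 had differences of -0.10 (SE 0.15) and 0.09 (SE 0.17) in 2 probe sets, the second of which turned to -0.13 (SE 0.21) with the 18S covariate.

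Collagen I, the main collagen of connective tissue and later of bone, was probed by 4 probe sets. For Col1a1, 1423669_at gave 522, 738 and 716 on the wild-type arrays and 426, 569 and 447 on the mutant arrays, with wild-type array 1 inside the mutant range (log2 difference -0.44, SE 0.18), just outside the unadjusted p of 0.05 used for counting. With the 18S covariate this difference was -0.17 (SE 0.22), and the other probe set of Col1a1 gave -0.17 (SE 0.15). The 2 probe sets of Col1a2, the partner chain, gave -0.07 (SE 0.12) and -0.15 (SE 0.16), with overlapping groups. The brightest fibrillar probe set, for Col3a1 of the stretchable connective tissues, gave 5177, 4993 and 4964 on the wild-type arrays and 4525, 4694 and 5011 on the mutant arrays (log2 difference -0.09, SE 0.11), and its other probe set gave 0.0047 (SE 0.14).

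Collagen V starts the assembly of collagen I fibrils. All 3 probe sets of its chain Col5a1 were lower in mutants, with log2 differences of -0.19 (SE 0.11), -0.38 (SE 0.16) and -0.28 (SE 0.15). The groups did not overlap in 2 of them: 1416740_at gave 895, 882 and 836 on the wild-type arrays and 706, 797 and 787 on the mutant arrays, and 1416741_at gave 177, 194 and 199 on the wild-type arrays and 149.7, 171 and 112 on the mutant arrays. The second of these was also just outside the unadjusted p of 0.05. Col5a2, the partner chain, gave -0.02 (SE 0.11) and -0.0066 (SE 0.18). Col5a3 gave -0.26 (SE 0.17) and, in a probe set below background, -0.15 (SE 0.17).

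**Figure D3:**
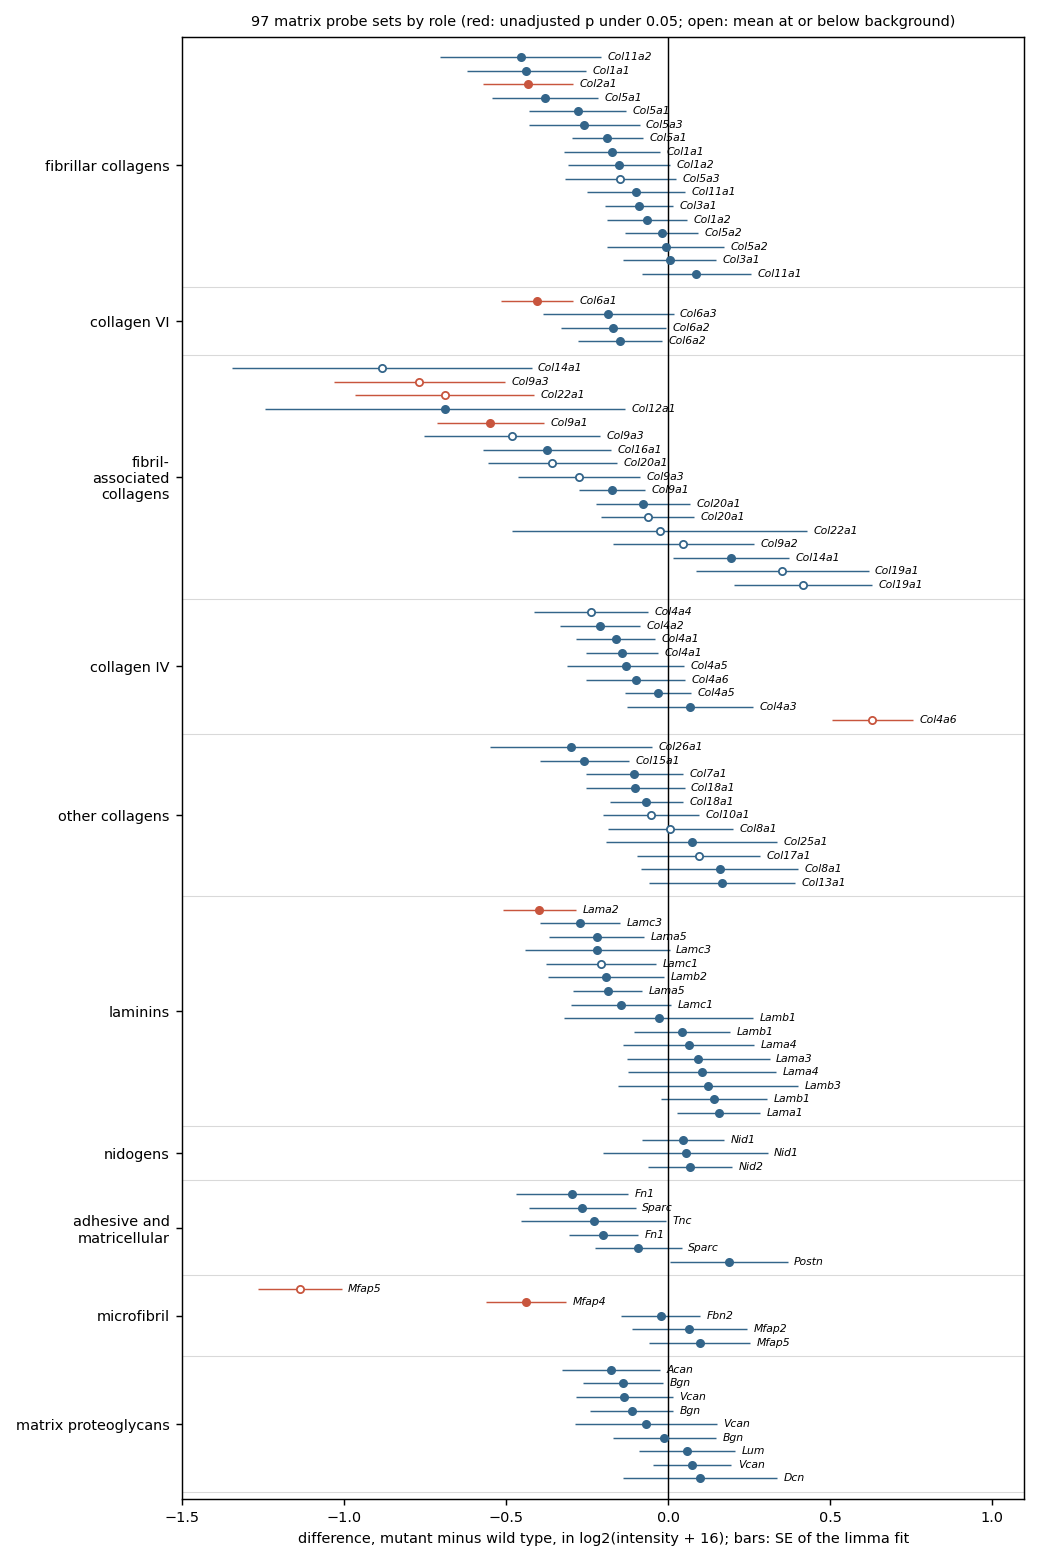
Difference between mutants and wild type (x axis, log2 of intensity + 16) for each of the 97 probe sets, grouped by role, with bars for the SE of the limma fit and gene names beside the points. Red marks an unadjusted p under 0.05 and open circles a mean at or below background; 15 of 17 fibrillar and 4 of 4 collagen VI points lie below 0, and the 2 points farthest from 0 on either side, Mfap5 and Col4a6, are open.

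Collagen VI forms beaded microfibrils close to the cell surface, including those of muscle and nerve. All 4 probe sets of its 3 chains were lower in mutants, with a median of -0.18, and all 4 stayed lower under both scalings and with the 18S covariate. Col6a1 gave 309.7, 327 and 320.4 on the wild-type arrays and 232, 222 and 259 on the mutant arrays. The groups did not overlap, and mutants averaged 74.5% of wild type (log2 difference -0.40, SE 0.11, limma adjusted p = 0.783). The difference was -0.37 (SE 0.17) with the 18S covariate and -0.36 (SE 0.18) without wild-type arrays 2 and 3. Col6a2, whose 1452250_a_at was the brightest of the group, gave -0.15 (SE 0.13) and -0.17 (SE 0.16), and Col6a3 gave -0.18 (SE 0.20), each with overlapping groups.

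Fibril-associated collagens sit on the surface of fibrils and link them to the surrounding matrix. In mutants 13 of 17 probe sets of 9 genes were lower, with a median of -0.27, but 6 lay below background on all 6 arrays and only 4 lay above it on all. Collagen IX, which coats collagen II fibrils, supplied the brightest. For Col9a1, 1421381_a_at gave 946, 1371 and 1061 on the wild-type arrays and 834, 717 and 720.5 on the mutant arrays, and 1428571_at gave 3773, 3691 and 3767 on the wild-type arrays and 3433, 3164 and 3364 on the mutant arrays. The groups did not overlap in either probe set, and mutants averaged 67.2% and 88.7% of wild type. The log2 differences were -0.55 (SE 0.17) and -0.17 (SE 0.10), with limma adjusted p of 0.833 and 0.841. Wild-type array 2 was the highest of the 6 in 1421381_a_at, where the difference was -0.30 (SE 0.19) with the 18S covariate and -0.32 (SE 0.19) without wild-type arrays 2 and 3.

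The partner chains of collagen IX could not be followed, because Col9a2 and all 3 probe sets of Col9a3 lay below background on every array. One of the latter, 1420280_x_at, gave 32.5, 27.5 and 13.2 on the wild-type arrays and 14.3, 7.27 and 1.63 on the mutant arrays, with overlapping groups and an unadjusted limma p under 0.05. The other 2 probe sets of Col9a3 gave -0.27 (SE 0.19) and -0.48 (SE 0.27). Col22a1, a collagen of tissue junctions, was at or near background. Its probe set 1453084_s_at gave 38.6, 41.1 and 39.6 on the wild-type arrays and 10.8, 12.1 and 38.8 on the mutant arrays, where mutant array 3 lay inside the wild-type range, and the second gave -0.03 (SE 0.45).

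Col16a1 gave 168, 177 and 276 on the wild-type arrays and 147, 169 and 142 on the mutant arrays (log2 difference -0.37, SE 0.20), with wild-type array 3 standing high, and the difference was -0.20 (SE 0.28) with the 18S covariate. Col12a1 gave 164, 97.6 and 136 on the wild-type arrays and 80.9, 182 and 22.8 on the mutant arrays, with mutant arrays at both ends of the range. Its within-group SD of 0.87 log2 units was the highest of the 97, against a member median of 0.20 and 0.21 over all probe sets. Col14a1 gave 0.19 (SE 0.18) in its brighter probe set and -0.88 (SE 0.46) in one below background on 4 of 6 arrays. The latter was above background on wild-type arrays 2 and 3 alone, and its sign turned to 0.13 (SE 0.28) with the 18S covariate and 0.24 (SE 0.27) without those arrays. Col19a1 gave 0.42 (SE 0.21) and 0.35 (SE 0.27) near background. With the 18S covariate these differences were 0.75 (SE 0.25) and 0.11 (SE 0.37), the first at an unadjusted limma p under 0.05. Without wild-type arrays 2 and 3 they were 0.71 (SE 0.21) and -0.0018 (SE 0.33). The 3 probe sets of Col20a1 gave -0.36 to -0.06, at or close to background.

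Promoter sequences of the RefSeq annotation (GRCm38.p6) were available for 40 of the 61 genes, in 47 windows. They were searched on both strands over the 250 bases before each annotated start for the CCAAT box, for the Sox core written as ACAAAG or as ACAATG, for the joint Hox and Pbx letters TGATNNAT and for the TATA box written as TATAAA. A base could count for more than 1 of them. The CCAAT letters stood in 36.2% of the member windows, against 33.8% of all 32851 windows, and TATAAA in 17%, against 12.4%. The Sox letters ACAAAG stood in 6.38%, against 16.5%, and ACAATG in 0 of 47, against 10.7%. TGATNNAT stood in 1 of 47 (2.13%), against 7.68% of all. A match is no binding site, and its absence concerns these letters and windows only.

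Printed are the upstream bases of Col6a1 and Col9a1, a pair of the genes whose groups did not overlap, and of Col3a1, the member window with the TGATNNAT letters. Capitals mark the motifs found, and each window is read 5′ to 3′ on the strand of its gene. Col6a1 is at chr10:76726045-76726294 on the minus strand and Col3a1 at chr1:45311288-45311537 on the plus strand. Col9a1 has 2 annotated starts, with its windows at chr1:24177360-24177588 and chr1:24194953-24195202 on the plus strand. The first was searched over 250 bases and is printed over 229, up to the annotated start of the gene.
Col6a1: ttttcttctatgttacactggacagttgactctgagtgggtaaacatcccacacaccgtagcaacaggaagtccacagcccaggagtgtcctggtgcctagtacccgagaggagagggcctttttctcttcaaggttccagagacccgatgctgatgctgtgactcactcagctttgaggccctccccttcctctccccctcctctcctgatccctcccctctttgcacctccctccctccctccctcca
Col9a1, upstream start: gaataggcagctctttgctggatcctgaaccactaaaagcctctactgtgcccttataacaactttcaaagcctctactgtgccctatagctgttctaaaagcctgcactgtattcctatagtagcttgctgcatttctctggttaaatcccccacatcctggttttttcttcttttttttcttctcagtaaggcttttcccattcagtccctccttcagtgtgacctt
Col9a1, downstream start: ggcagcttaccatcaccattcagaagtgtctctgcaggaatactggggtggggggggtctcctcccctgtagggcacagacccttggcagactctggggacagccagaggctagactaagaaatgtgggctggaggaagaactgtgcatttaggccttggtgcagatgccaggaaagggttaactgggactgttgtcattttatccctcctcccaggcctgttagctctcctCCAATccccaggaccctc
Col3a1: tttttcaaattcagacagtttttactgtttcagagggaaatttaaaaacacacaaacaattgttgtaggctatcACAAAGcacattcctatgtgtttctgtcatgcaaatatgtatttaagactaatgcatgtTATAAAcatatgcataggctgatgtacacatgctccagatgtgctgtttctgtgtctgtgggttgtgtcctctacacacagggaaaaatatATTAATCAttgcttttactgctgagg
The Col6a1 window and the first Col9a1 window held none of the 5 motifs, and the second Col9a1 window held a CCAAT box near its end. The Col3a1 window held ACAAAG, then the TATA box and, on the opposite strand, the Hox and Pbx letters. Which start the Col9a1 probe sets read was not determined.

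Collagen IV is the network collagen of basement membranes. Lower means were found in 7 of its 9 probe sets, with a median of -0.13, and in 5 of 9 with the 18S covariate. Its common chains are encoded head to head, and the RefSeq windows of Col4a1 and Col4a2 lie on opposite strands of chromosome 8. The 2 Col4a1 probe sets gave -0.14 (SE 0.11) and -0.16 (SE 0.12), and Col4a2 gave -0.21 (SE 0.12). The brightest, 1452035_at of Col4a1, gave 2025, 1896 and 2186 on the wild-type arrays and 1656, 1843 and 1961 on the mutant arrays. Col4a2 gave 1237, 1112 and 1302 on the wild-type arrays and 948, 1085 and 1117 on the mutant arrays. Both overlapped between the groups, with mutant array 1 lowest in each.

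Col4a5 and Col4a6, also encoded on opposite strands, on the X chromosome, gave -0.13 (SE 0.18) and -0.03 (SE 0.10) for Col4a5 and -0.10 (SE 0.15) for the brighter Col4a6 probe set, which turned to 0.10 (SE 0.20) with the 18S covariate. The dimmer Col4a6 probe set, 1421007_at, gave 30.4, 26.5 and 34.8 on the wild-type arrays and 50.2, 60.8 and 57.1 on the mutant arrays. It was the only member with all mutant arrays above all wild-type arrays (limma adjusted p = 0.615), but every value lay below background. No fold is therefore given, and the brighter probe set, 184, 235 and 218 on the wild-type arrays and 230.4, 192 and 171 on the mutant arrays, overlapped. Col4a3 gave 0.07 (SE 0.19), and Col4a4 lay below background.

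**Figure D4:**
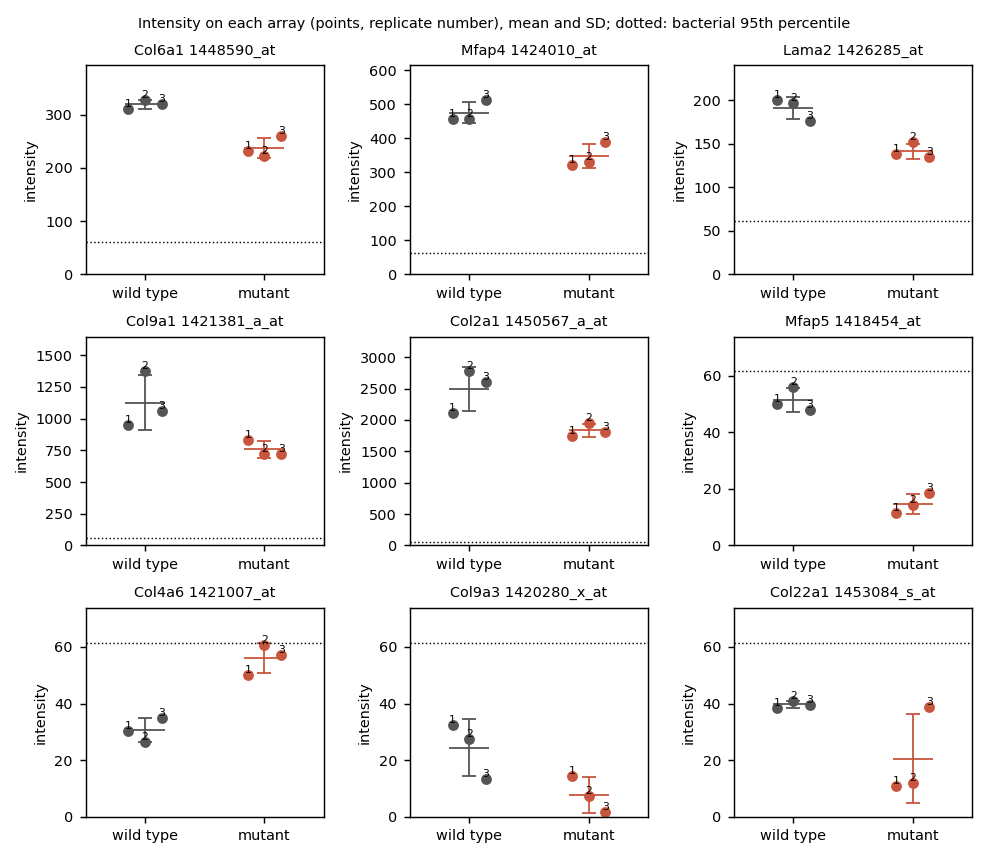
Intensity on each array (y axis, linear from 0) in wild type (grey) and mutants (red) for the 9 member probe sets with an unadjusted p under 0.05; numbers are replicates, bars the mean and SD of 3 arrays, and the dotted line the bacterial 95th percentile of 61.5. The 5 probe sets of Col6a1, Mfap4, Lama2, Col9a1 and Col2a1 lie above the line on all arrays with no overlap, and the other 4 lie below it on all arrays.

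Among the other collagens, 6 of 11 probe sets of 9 genes were lower, with a median of -0.05, and the groups overlapped in all. With median centring 5 of 11 were lower, and with the 18S covariate 4 of 11, where the median was 0.02. Col18a1, a basement membrane collagen whose end fragment is endostatin, was the brightest and gave 2358, 2738 and 2375 on the wild-type arrays and 2360.3, 2433 and 2321 on the mutant arrays (log2 difference -0.07, SE 0.11). Its second probe set gave -0.10 (SE 0.15), and both turned sign with the 18S covariate, to 0.02 (SE 0.17) and 0.03 (SE 0.21). Col15a1, its relative in vessels and muscle, gave 178, 211 and 234 on the wild-type arrays and 184, 157 and 170.04 on the mutant arrays (log2 difference -0.26, SE 0.14), with only mutant array 1 inside the wild-type range. The difference was -0.08 (SE 0.17) with the 18S covariate and -0.06 (SE 0.18) without wild-type arrays 2 and 3. Col26a1 gave -0.30 (SE 0.25), with mutant array 1 low at 339, and -0.15 (SE 0.36) with the 18S covariate. Col7a1, the anchoring fibril of skin, gave -0.10 (SE 0.15), and the membrane-bound Col13a1 and Col25a1 gave 0.17 (SE 0.23) and 0.07 (SE 0.26). Col8a1 gave 0.16 (SE 0.24) and 0.0070 (SE 0.19), the first near background and the second below it. Col10a1 and Col17a1, of hypertrophic cartilage and of skin, were below background on all arrays.

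Laminins are 3-chain proteins that start basement membranes. Of 16 probe sets of 10 genes 9 were lower, with a median of -0.09. The count was 8 of 16 with quantile normalization or median centring and 13 of 16 with the 18S covariate. Lama2, the alpha chain of muscle and of nerve sheaths, gave 199.8, 197 and 176 on the wild-type arrays and 138, 151 and 134 on the mutant arrays. The groups did not overlap, and mutants averaged 73.9% of wild type (log2 difference -0.40, SE 0.11, limma adjusted p = 0.806). The difference was -0.45 (SE 0.17) with the 18S covariate, where its unadjusted p was again under 0.05, and -0.46 (SE 0.18) without wild-type arrays 2 and 3, where it was not.

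The other alpha chains gave differences on both sides of 0. Lama1, the chain of early embryonic basement membranes, gave 211, 182 and 221 on the wild-type arrays and 243, 242 and 205 on the mutant arrays (log2 difference 0.16, SE 0.13). Lama5, which follows it in most epithelia, gave 454, 493 and 474 on the wild-type arrays and 416, 433 and 394 on the mutant arrays, with no overlap (log2 difference -0.19, SE 0.11, limma adjusted p = 0.836), and its second probe set gave -0.22 (SE 0.15). Lama4, of vessels, gave 0.11 (SE 0.23) and 0.06 (SE 0.20), and Lama3, of skin, gave 0.09 (SE 0.22).

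The brightest laminin probe set, 1424114_s_at of Lamb1, the beta chain of most laminins, gave 556, 468 and 493 on the wild-type arrays and 500.1, 693 and 502 on the mutant arrays (log2 difference 0.14, SE 0.16). Mutant array 2 alone stood high, and the difference was -0.0093 without it and -0.0087 (SE 0.23) with the 18S covariate. The other 2 Lamb1 probe sets gave -0.03 (SE 0.29) and 0.04 (SE 0.15). Lamb2 and Lamb3 gave -0.19 (SE 0.18) and 0.12 (SE 0.28). Lamc1, the gamma chain of most laminins, gave -0.14 (SE 0.15), with a second probe set below background. Lamc3, a chain found in brain and at nerve, gave 198, 186 and 187 on the wild-type arrays and 177, 148 and 141 on the mutant arrays, without overlap (log2 difference -0.27, SE 0.12, limma adjusted p = 0.833), and -0.22 (SE 0.22) in its second probe set.

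The nidogens, which tie laminin to collagen IV, were higher in all 3 probe sets, by small amounts. Nid1 gave 699, 633 and 801 on the wild-type arrays and 696, 746 and 752 on the mutant arrays (log2 difference 0.05, SE 0.13) and, in its second probe set, 0.05 (SE 0.25). Nid2 gave 392, 348 and 393 on the wild-type arrays and 443, 399 and 351 on the mutant arrays (log2 difference 0.07, SE 0.13). The groups overlapped in each.

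Adhesive and matricellular glycoproteins were lower in 5 of 6 probe sets of 4 genes, with a median of -0.21, and in 3 of 6 with the 18S covariate, where the median was -0.03. Fibronectin (Fn1), the adhesive glycoprotein that migrating crest cells bind through integrins, gave 3749.6, 3691 and 3797 on the wild-type arrays and 3387, 3055 and 3349 on the mutant arrays. All 3 mutant arrays lay below wild type, at 87.1% of its mean (log2 difference -0.20, SE 0.11, limma adjusted p = 0.833), and its second probe set gave -0.30 (SE 0.17) with overlap. Sparc, a collagen-binding glycoprotein, gave -0.09 (SE 0.13), which turned to 0.04 (SE 0.19) with the 18S covariate, and -0.26 (SE 0.16). Tnc, the tenascin of developing nervous tissue and mesenchyme, gave 105, 156 and 194 on the wild-type arrays and 119, 107 and 148 on the mutant arrays (log2 difference -0.23, SE 0.22), and its sign turned to 0.14 (SE 0.24) with the 18S covariate and 0.20 (SE 0.23) without wild-type arrays 2 and 3. Postn, periostin of connective tissue, had the higher mean in mutants, with 408, 461 and 406 on the wild-type arrays and 605, 496 and 380.1 on the mutant arrays (log2 difference 0.19, SE 0.18).

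Microfibril proteins form the scaffold of elastic fibres. Of 5 probe sets of 4 genes 3 were lower, with a median of -0.02 that turned to 0.0016 with quantile normalization and 0.03 with median centring, where 2 of 5 were lower. Mfap4, a glycoprotein of elastic fibres, gave 458, 457 and 512 on the wild-type arrays and 323, 331 and 388 on the mutant arrays. No mutant array reached wild type, and mutants averaged 73.0% of it (log2 difference -0.44, SE 0.12, limma adjusted p = 0.800). The difference was -0.41 (SE 0.19) with the 18S covariate and -0.39 (SE 0.20) without wild-type arrays 2 and 3.

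Mfap5 had the lowest adjusted p of the members in 1418454_at, which gave 49.9, 56 and 47.9 on the wild-type arrays and 11.5, 14.2 and 18.4 on the mutant arrays. The groups lay far apart relative to their spread (limma adjusted p = 0.235), but all 6 values lay below background. The brighter probe set of Mfap5 gave 109, 133 and 122 on the wild-type arrays and 152, 106 and 138 on the mutant arrays, on the other side and with overlap (log2 difference 0.10, SE 0.16). Mfap2, with the brightest probe set of the group, gave 2277, 2772 and 1814 on the wild-type arrays and 2491, 2124 and 2485 on the mutant arrays. Its log2 difference was 0.07 (SE 0.18), and -0.09 without wild-type array 3. The fibrillin Fbn2 gave 577, 549.5 and 571 on the wild-type arrays and 576, 609 and 492 on the mutant arrays (log2 difference -0.02, SE 0.12).

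Matrix proteoglycans carry long sugar chains and fill the space between fibres. Of 9 probe sets of 5 genes, 6 were lower (5 of 9 with quantile normalization or median centring), with a median of -0.07, and the groups overlapped in all. Versican (Vcan), a large proteoglycan that borders crest pathways, gave 2222, 1941 and 1907 on the wild-type arrays and 2224, 2202 and 1964 on the mutant arrays in its brightest probe set (log2 difference 0.07, SE 0.12). Its other 2 gave -0.14 (SE 0.15) and -0.07 (SE 0.22), and the brightest turned to -0.04 with the 18S covariate and to -0.06 without wild-type arrays 2 and 3. Aggrecan (Acan), the cartilage proteoglycan, gave 124, 138 and 157 on the wild-type arrays and 142, 103 and 121 on the mutant arrays (log2 difference -0.18, SE 0.15). The small leucine-rich proteoglycans gave -0.14 (SE 0.12), -0.01 (SE 0.16) and -0.11 (SE 0.13) for Bgn, 0.06 (SE 0.15) for Lum and 0.10 (SE 0.24) for Dcn.

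Several probe sets were present for 30 of the 61 genes. In 19 of these all probe sets were lower in mutants, in 4 all were higher, and in 7 they lay on both sides. The median gap between the outermost probe sets of a gene was 0.12 log2 units. The widest gaps were in Mfap5, Col14a1 and Col4a6, each between a probe set at or below background and a brighter one on the other side. Of the 78 member probe sets whose mean lay above background, 55 were lower (70.5%, against 53.2% of all such probe sets), and 5 reached an unadjusted p under 0.05 (6.41%, against 5.27%). All 5 were lower in mutants, against 3.62% of such probe sets. The groups did not overlap in 11 (14.1%), all with mutants below, against 7.21% of such probe sets with mutants below and 5.36% with mutants above.

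**Figure D5:**
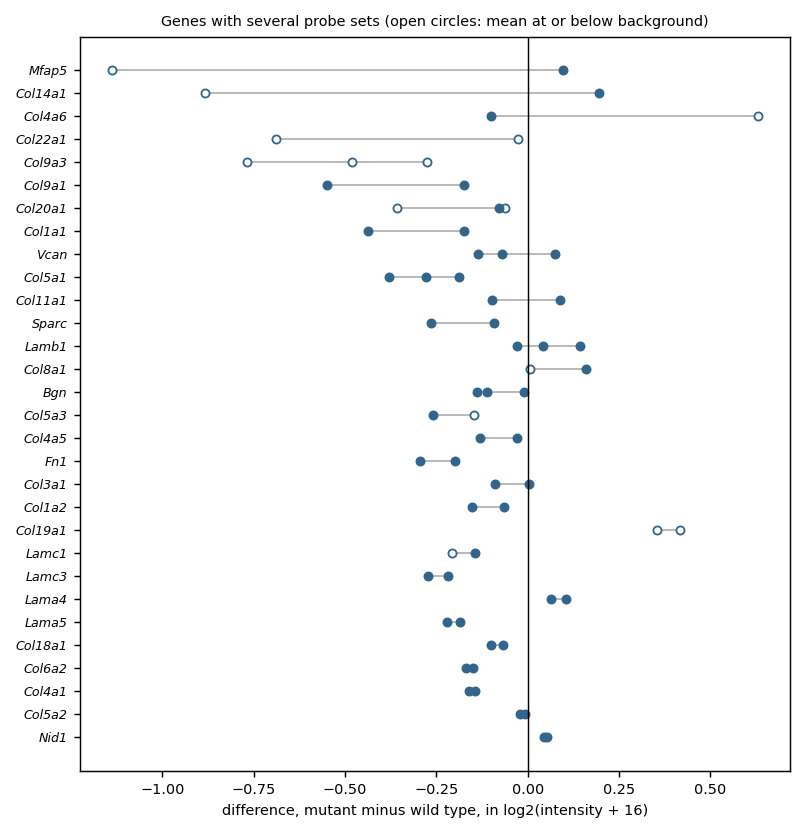
Differences (x axis, mutant minus wild type in log2 of intensity + 16) of all probe sets of the 30 member genes with more than 1, joined by a line per gene and ordered by the width of the gap. Open circles mark means at or below background; the widest gaps, in Mfap5, Col14a1 and Col4a6, each join an open and a filled circle on opposite sides of 0.

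The genes that make, bind and break down the matrix were taken as 4 further lists, with 1 probe set per gene. Of 22 genes for collagen synthesis and processing, 13 were lower, with a median of -0.08. At an unadjusted p under 0.05 stood 2 lower and 0 higher, where 3.76% of all genes were lower and 1.7% higher. P3h3, a collagen prolyl hydroxylase, gave 221, 253 and 243 on the wild-type arrays and 197, 173 and 208 on the mutant arrays (log2 difference -0.29, SE 0.12), and Tll1, a procollagen protease, lay below background on all arrays. Bmp1, the main procollagen C-proteinase, gave 573, 513 and 722 on the wild-type arrays and 462, 489 and 493 on the mutant arrays (log2 difference -0.30, SE 0.15), with no overlap.

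Of 24 matrix receptors 13 were lower and 11 higher. Of these 2 lower and 2 higher reached an unadjusted p under 0.05, where 3.76% of all genes were lower and 1.7% higher. Sdc3, a syndecan of neural tissue, gave 667, 677 and 736 on the wild-type arrays and 571, 531 and 542 on the mutant arrays (log2 difference -0.33, SE 0.11). Hmmr, a hyaluronan receptor that also acts at the mitotic spindle, gave 897, 969 and 781 on the wild-type arrays and 1121, 1119 and 1071 on the mutant arrays (log2 difference 0.32, SE 0.12), all mutant arrays above wild type. Itga4, an integrin chain that binds fibronectin, gave 41.6, 45.9 and 59.9 on the wild-type arrays and 91.1, 58.8 and 82.6 on the mutant arrays (log2 difference 0.51, SE 0.18), below background on 4 of 6 arrays. Itga5, the alpha chain of the main fibronectin receptor, gave 226, 339 and 304 on the wild-type arrays and 83.8, 179.6 and 232 on the mutant arrays (log2 difference -0.84, SE 0.34), with overlapping groups.

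Of 23 matrix proteases and inhibitors 16 were lower, with a median of -0.06 (12 of 23 with quantile normalization or median centring), and 1 was at that p, where 5.46% of all genes were. Mmp11, stromelysin 3, gave 194, 205 and 187 on the wild-type arrays and 150.2, 168 and 146 on the mutant arrays (log2 difference -0.31, SE 0.11). Mmp23 gave 178, 97.6 and 159 on the wild-type arrays and 70.8, 116 and 86.2 on the mutant arrays (log2 difference -0.57, SE 0.25), and Ctsk, a collagen-degrading cathepsin, gave 117, 107 and 79.3 on the wild-type arrays and 85.8, 87.3 and 72.3 on the mutant arrays (log2 difference -0.25, SE 0.16). Of 45 other matrix genes 28 were lower, with a median of -0.08, and 2 reached that p, both lower. Emilin1, a glycoprotein of elastic fibres, gave 504, 525 and 542 on the wild-type arrays and 384, 423 and 418 on the mutant arrays (log2 difference -0.35, SE 0.11), and Spock2, a proteoglycan of neural tissue, gave 281, 339 and 362 on the wild-type arrays and 268, 243 and 228 on the mutant arrays (log2 difference -0.38, SE 0.14). Mgp, the matrix Gla protein, lay below background on all arrays. No gene of these lists passed an adjusted p of 0.05.

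Markers of the cells that the dissection could hold were measured beside the matrix genes. Of 18 markers of head mesenchyme and neural crest 14 were lower in mutants, and their summed intensity was 8447 to 10410.0 for wild type and 8069.6 to 8860.0 for mutants. With the 18S covariate 9 of 18 were lower, and with median centring 11. Of 11 neural tube markers 10 were lower, with sums of 14358 to 17087 for wild type and 11919 to 14519 for mutants. Sox3, a factor of neural progenitors, gave 839.7, 969.8 and 1367 on the wild-type arrays and 548, 633 and 642 on the mutant arrays (log2 difference -0.76, SE 0.20, limma adjusted p = 0.740). All 5 otic vesicle markers were lower, 4 of 5 under either scaling or with the 18S covariate, with sums of 1665 to 2509 for wild type and 1406 to 1618 for mutants. The 2509 was on wild-type array 3, where Dlx5 gave 1391, against 601 and 620 on wild-type arrays 1 and 2. Dlx5 is also in the head mesenchyme and neural crest list, so its value is part of the 10410.0 too. Among the otic markers Sox10, also a crest factor, gave 419, 477 and 485 on the wild-type arrays and 355, 308 and 372 on the mutant arrays (log2 difference -0.40, SE 0.13, limma adjusted p = 0.833). All 4 markers of notochord and floor plate were lower, with sums of 1185 to 1270.4 for wild type and 984 to 1223 for mutants.

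Of 8 markers of chondrogenic precursors 2 were lower (4 of 8 with the 18S covariate), with sums of 970.1 to 1032 for wild type and 938 to 1027 for mutants. Sox9, 1 of the 2 lower ones, gave 317, 359 and 444 on the wild-type arrays and 297, 320.2 and 348 on the mutant arrays. Its groups overlapped (log2 difference -0.19, SE 0.15), while 6 of the 8 markers were higher and the list had a median of 0.08. Of 13 endothelial and pericyte markers 8 were lower (6 of 13 with quantile normalization or median centring), with sums of 4078 to 4495 for wild type and 4096 to 4202 for mutants. Surface and pharyngeal epithelium had 5 of 10 lower, with sums of 3794 to 4926 for wild type and 4019 to 4760.1 for mutants. Striated muscle precursors had 2 of 7 lower, with sums of 1012 to 1369.9 for wild type and 1136 to 1487 for mutants. Primitive erythroid cells had 2 of 6 lower, with sums of 33470.0 to 38772 for wild type and 36941 to 40976 for mutants. Macrophages and leukocytes had 6 of 7 lower (5 of 7 under either scaling), with sums of 1369.7 to 1595 for wild type and 1076 to 1581 for mutants. In each marker list at most 1 marker was below background on all arrays. The part of these cells in the matrix values was not tested.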

How the data were processed

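The deposited values are linear intensities, 1 for each probe set of each array. The submitters' processing notes name affy with no version, and the sources used here do not give the summary algorithm or the background correction. From the values, the authors had scaled each array to a mean of 500.0 with 2% trimmed at each end. Without the 64 Affymetrix controls, 22626 probe sets were tested. Of these, 20380 name 1 gene in the platform annotation, which chose the members; 20351 matched an Entrez identifier of the RefSeq table (GRCm38.p6), and none changed its symbol. Background is the 95th percentile of 27 bacterial control probe sets over all arrays.

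Intensities were transformed to log2(intensity + 16) and fitted across all 6 arrays by group alone with lmFit and eBayes of limma 3.58.1 (R 4.3.3, 2-sided). P-values were adjusted by Benjamini-Hochberg over the 22626 probe sets. This fit was first tested on simulated data with known changes. Precision is limited by the number of arrays: a member's SE had a median of 0.16. Arrays correlated at 0.973 to 0.984, and 0 pairs were identical. Genes named are the members with an unadjusted p under 0.05, the brightest of each role and up to 3 genes of smallest p per pathway list. The other members are named by value or, where below background on all arrays, in some cases by that statement alone. Itga5 was named after its values were seen. Of the markers Sox3, Sox10 and Sox9 are named, each with the smallest p of its list and each lower in mutants. Dlx5 is named only for its share in the sums of 2 marker lists. No other marker of these lists is named. Members, lists and tests were chosen with earlier results of these data known. Alternatives were quantile normalization, median centring, a filter on dim probe sets, pseudocounts of 1 and 64, a trended and robust eBayes, weighting of arrays, a block for the replicate number, the 18S signal as covariate, leaving out each array, and 1 probe set per gene.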

Additional observations from a re-analysis of the deposited data

How the results depend on the processing

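The median difference of the members stayed below 0 under all 16 alternatives. It moved beyond the spread between arrays with median centring, where it was -0.059, against 0.03 over all probe sets. Median centring shifts the difference of every probe set by the same amount. Without each array in turn the member median ran from -0.14 to -0.08. Members at an unadjusted p under 0.05, 9 in number, were 14 with array weights (9.25% of all probe sets) and 5 with the 18S covariate (4.01%). With 1 probe set per gene they were 4 (5.46% of genes). They were 7 to 11 without each array, where 4.68% to 8.73% of all probe sets reached that p. Leaving out mutant array 1 gave 9 members (9.28%), against 8.73% of all, and leaving out mutant array 2 gave 11 (11.3%), against 4.68%. The fit without wild-type arrays 2 and 3, chosen after seeing the data, gave a member median of -0.12. Over all probe sets, 0 passed an adjusted p of 0.05, against 3 with quantile normalization, 4 with median centring, 2 without dim probe sets, 3 with a trended, robust eBayes, 4 with array weights and 0 without each array in turn; 1303 had an unadjusted p under 0.05, and 1975 without mutant array 1. None of these calls was a member in any setting. The cause of these moves was not tested, apart from the common shift under median centring and the fewer probe sets or arrays that some settings use. The replicate numbers share only a number: same-numbered arrays deviated together at correlations of 0.05, -0.02 and 0.04, 4 of 6 arrays correlated best with their own number, and the replicate block gave 10 members and 1361 probe sets at an unadjusted p under 0.05. Followed singly under the alternatives were 31 probe sets: members at an unadjusted p under 0.05, the brightest of each role and the pathway genes of smallest p. Of these 31, 5 turned sign in some alternative, none of them at an unadjusted p under 0.05: Col18a1, Lamb1, Mfap2, Nid1 and Vcan. The other members were not followed in this way, and among all 97 members 15 turned sign with the 18S covariate. Signal at or below background limits 19 member probe sets.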
